A study of Mus musculus with 6 samples.

Results

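Astrocytes and the astrocyte-like stem cells of the adult brain keep the fluid around neurons stable. They take up glutamate through transporters of the SLC1 family, turn it into glutamine, clear potassium with the sodium pump, pass water through aquaporin channels, exchange bicarbonate, and share ions and metabolites through gap junctions built from connexins. The genes described here are 9 of 55802 in the deposited tables, taken by symbol: the water channel gene Aqp4, the connexin genes Gja1 and Gjb6, the glutamate transporter genes Slc1a2 and Slc1a3, the sodium pump subunit gene Atp1b2, the glutamine synthetase gene Glul, the sodium bicarbonate cotransporter gene Slc4a4 and the aldolase gene Aldoc. All 9 were found once in each table.

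The libraries came from RNA of primary neural stem cells taken from the subventricular zone, the germinal layer along the lateral ventricles, of adult C57BL/6 mice, grown with B27 supplement. The SETD4 OE cells (genotype label SETD4 overexpression, n = 3 libraries) had been infected for 24 h with the adenovirus ADV-SETD4-GFP, and the control cells (genotype label WT, n = 3) with ADV-GFP, so both groups carried adenovirus and green fluorescent protein. SETD4 belongs to the SET domain family of lysine methyltransferases, and the comparison asks what raising it does to the transcriptome. The promoter of the construct, the age of the adult mice in months and the number of animals or cultures behind the libraries are not given in the sources used here, so the p-values measure the spread between these libraries, which may be technical.

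Values were FPKM, fragments per kilobase of gene length scaled to library size, and the libraries held 14924273 to 18078717 reads recovered from them. Setd4 was at 296, 346 and 333 FPKM in SETD4 OE, against 0.952, 0.972 and 1.53 FPKM in control. The 12994 genes that averaged 1 FPKM or more across all 6 libraries were compared with limma on log2(FPKM + 1), and a gene is called changed at a Benjamini-Hochberg adjusted p under 0.05. Of these genes 60.0% were called, 26.0% higher and 33.9% lower in SETD4 OE. The higher calls made up 43.4% of all calls as deposited, 50.8% with libraries scaled to equal sums of recovered reads and 57.5% with upper-quartile scaling. The library sizes behind the deposited values lay above the recovered totals in all 3 SETD4 OE libraries and below them in all 3 control libraries. The balance of higher and lower calls therefore depends on the scaling. Mitochondrially encoded reads made up 3.52 to 3.73% in SETD4 OE, against 3.78% in control replicate 1 and 2.45% in each of the other controls, and leaving out control replicate 1 ended none of the calls of the 9 genes. Among markers listed for the labelled cell type, Sox2, Vim and Nes were at 190 ± 8.98, 682 ± 20.9 and 42.7 ± 5.39 FPKM in SETD4 OE and at 162 ± 13.7, 862 ± 27.5 and 117 ± 16.0 FPKM in control (mean ± SD, n = 3 each). Gfap, the intermediate filament of astrocytes and of these stem cells, was at 1388 ± 42.8 FPKM in SETD4 OE and 321 ± 14.6 FPKM in control, so the cultures of both groups carried astroglial as well as progenitor transcripts.

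Most of the homeostasis genes were higher in SETD4 OE, by amounts that differed widely. Of the 9 genes 8 passed the filter on low values. Of these, 7 rose, in a comparison that called 26.0% of tested genes higher, and Slc4a4 fell, where 33.9% were called lower. In 6 of them the log2 fold change was above 1, which held with a call for 4.28% of tested genes. The changes ran from 7.32 times the control mean for Aqp4 to 0.780 times for Slc4a4. The median log2 fold change of the 8 was 1.38, beside -0.06 over all tested genes. The SETD4 OE and control values did not overlap for any of the 9 genes. The same held for 66.0% of tested genes, with all SETD4 OE values above control for 29.1% and all below for 36.9%. Together the 9 genes summed to 1411, 1431 and 1391 FPKM in SETD4 OE and to 622, 599 and 597 FPKM in control. In bulk RNA a change in the number of cells of a type and a change in RNA per cell cannot be told apart.

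**Figure D1:**
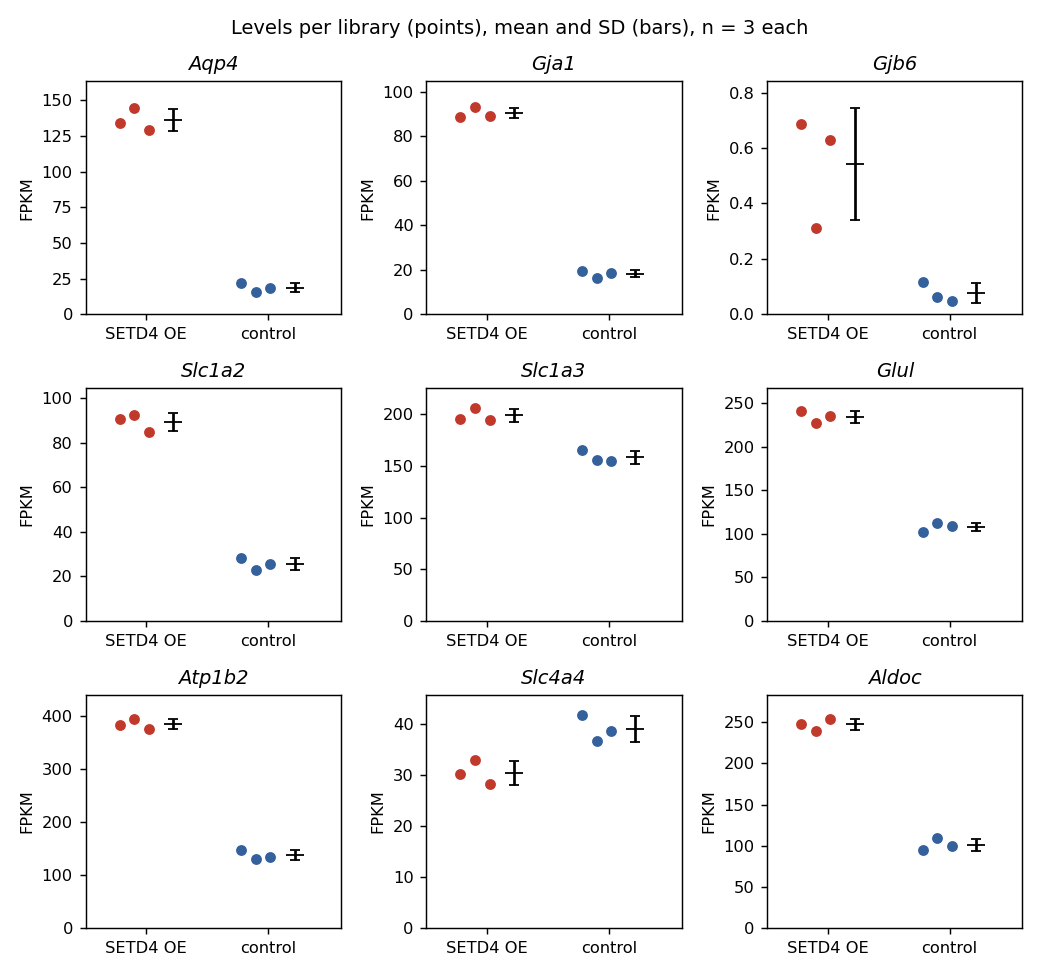
FPKM of the 9 genes in each library, with SETD4 OE (red) left of control (blue); bars give the mean and SD of 3 libraries. Every axis starts at 0. Slc4a4 alone is lower in SETD4 OE, Slc1a3 has the smallest rise, and Gjb6 stays below 1 FPKM in all 6 libraries.

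Aqp4 (ENSMUSG00000024411; mm39 chromosome 18, 15522553 to 15544039, minus strand) encodes the water channel that astrocytes concentrate in the endfeet they place on blood vessels, and which ependymal cells also make. It was at 134, 145 and 130 FPKM in SETD4 OE, against 21.8, 15.7 and 18.2 FPKM in control. The SD was 7.93 FPKM in SETD4 OE and 3.07 FPKM in control. Relative to the group mean the control libraries varied more, with replicate 1 the highest. This was a log2 fold change of 2.82 (SE 0.11, adjusted p = 3.815e-06, limma), which placed Aqp4 at rank 5 of the 12994 tested genes from the highest. By level it stood at rank 228 in SETD4 OE and at rank 3153 in control. On the opposite strand it overlaps Gm50048, a long noncoding RNA gene with 225 reads in SETD4 OE and 44 in control summed over 3 libraries, beside 40700 and 5713 reads assigned to Aqp4. No strand setting is given in the sources used here.

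The 2 connexin genes had very different levels. Gja1 (ENSMUSG00000050953; chromosome 10, 56253426 to 56278609, plus strand), which encodes the main connexin of astrocytes and of radial glia, was at 88.9, 93.3 and 89.3 FPKM in SETD4 OE, against 19.6, 16.4 and 18.7 FPKM in control. All SETD4 OE values were more than 4 times the highest control value. Its log2 fold change of 2.25 (SE 0.07, adjusted p = 2.082e-06, limma) was at rank 23 from the highest. Gjb6 (ENSMUSG00000040055; chromosome 14, 57360760 to 57371068, minus strand), the connexin that mature astrocytes add to Gja1, was at 0.687, 0.313 and 0.629 FPKM in SETD4 OE, against 0.117, 0.0638 and 0.0470 FPKM in control. It therefore stayed below the filter in every library. These values rest on 29, 13 and 28 reads in SETD4 OE and 5, 3 and 2 reads in control. The ratio of summed reads per library total was 7.65 (exact 95% interval 3.92 to 16.6, counting error only). When all 30911 genes with any value were tested, Gjb6 was higher in SETD4 OE with a log2 fold change of 0.51 (SE 0.11, adjusted p = 0.0152, limma), in a fit that called 12.9% of genes higher. With limma-voom on the reads of 20965 genes it was 2.76 (SE 0.63, adjusted p = 0.00175).

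The transcripts of the 2 main glial glutamate transporters changed by unequal amounts. Slc1a2 (ENSMUSG00000005089; chromosome 2, 102489004 to 102621129, plus strand) encodes the transporter that carries most glutamate uptake in the mature forebrain. It was at 90.7, 92.3 and 84.6 FPKM in SETD4 OE, against 28.1, 22.9 and 25.7 FPKM in control, a log2 fold change of 1.77 (SE 0.08, adjusted p = 6.195e-06, limma). Slc1a3 (ENSMUSG00000005360; chromosome 15, 8663608 to 8740248, minus strand) encodes the transporter that radial glia and stem cells make early. It was at 196, 206 and 195 FPKM in SETD4 OE, against 166, 155 and 155 FPKM in control. The groups did not overlap, but the log2 fold change was only 0.32 (SE 0.06, 95% interval 0.18 to 0.47, adjusted p = 2.995e-03, limma), at rank 2875 from the highest. On its own strand Slc1a3 overlaps Gm37310, a gene with 1018 reads in SETD4 OE and 936 in control, beside 81429 and 67041 for Slc1a3. Per length, Slc1a2 reached 0.463, 0.448 and 0.434 of the Slc1a3 level in the 3 SETD4 OE libraries, against 0.169, 0.147 and 0.166 in control.

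Glul (ENSMUSG00000026473; chromosome 1, 153775690 to 153785469, plus strand) encodes glutamine synthetase, which converts the glutamate taken up into glutamine. It was at 240, 227 and 235 FPKM in SETD4 OE, against 102, 112 and 109 FPKM in control, and every SETD4 OE library was more than 2 times the highest control. Its log2 fold change came to 1.11 (SE 0.06, adjusted p = 1.094e-05, limma).

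Atp1b2 (ENSMUSG00000041329; chromosome 11, 69490562 to 69496768, minus strand) encodes the glial beta subunit of the sodium-potassium pump, also known as an adhesion molecule on glia. It was the most abundant of the 9 in SETD4 OE, at 383, 394 and 375 FPKM, against 148, 130 and 133 FPKM in control. On the log2 scale it was higher by 1.48 (SE 0.07, adjusted p = 6.387e-06, limma). Slc4a4 (ENSMUSG00000060961; chromosome 5, 89034345 to 89387512, plus strand) encodes the cotransporter through which astrocytes move sodium and bicarbonate. It was at 30.1, 32.9 and 28.2 FPKM in SETD4 OE, against 41.7, 36.6 and 38.6 FPKM in control. Its log2 fold change was -0.35 (SE 0.08, 95% interval -0.53 to -0.17, adjusted p = 6.271e-03, limma), but the call was lost with upper-quartile scaling (-0.20, adjusted p = 0.0889) and with quantile normalization (-0.18, adjusted p = 0.131), and the adjusted p ranged from 0.00471 to 0.131 over 15 alternatives. Upper-quartile scaling moved the median of all genes up by 0.12 on the log2 scale.

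Aldoc (ENSMUSG00000017390; chromosome 11, 78213794 to 78218607, plus strand) encodes the aldolase isozyme of astrocytes and stem cells, a glycolytic enzyme often used as a marker of these cells. It was at 248, 240 and 254 FPKM in SETD4 OE, against 94.8, 109 and 99.2 FPKM in control (log2 fold change 1.28, SE 0.07, adjusted p = 1.094e-05, limma). Aldoa, the isozyme found in most tissues, went the other way, at 252, 251 and 276 FPKM in SETD4 OE, against 320, 376 and 353 FPKM in control (log2 fold change -0.43, SE 0.08, limma adjusted p = 3.386e-03). With quantile normalization it no longer passed (-0.09, limma adjusted p = 0.0999). Aldoa values are those of the longer of the 2 gene identifiers with that symbol. The shorter one had 1.14 FPKM in SETD4 OE and 1.75 FPKM in control.

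**Figure D2:**
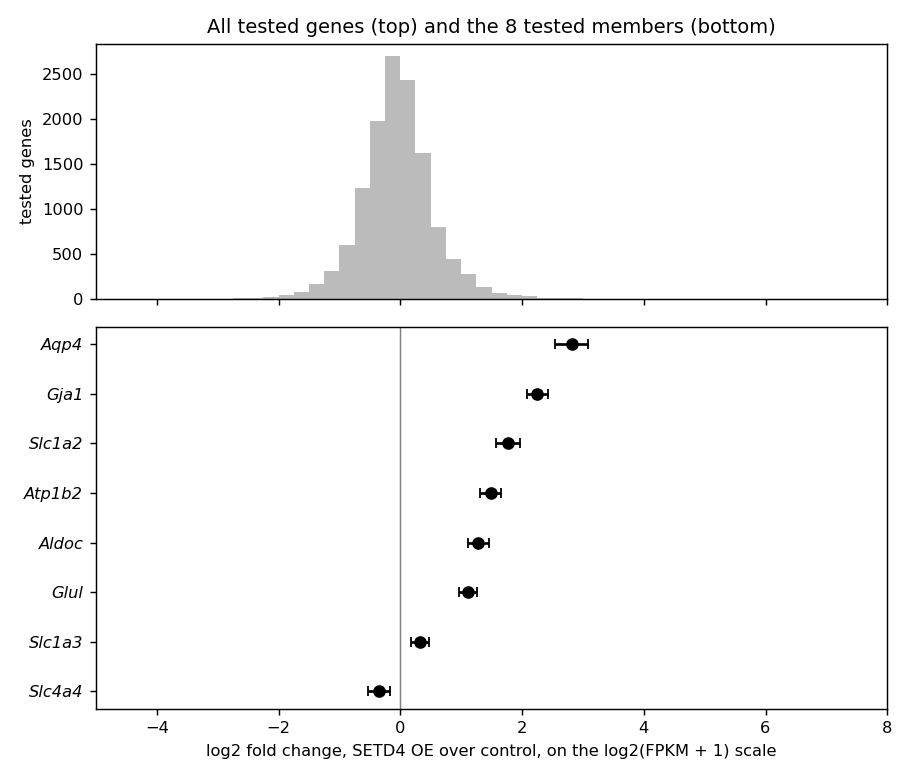
Log2 fold changes of SETD4 OE over control on the log2(FPKM + 1) scale. The upper panel counts all 12994 tested genes in steps of 0.25, and the lower panel gives the 8 tested genes of the group with their 95% intervals from limma. The intervals of Aqp4 and Gja1 lie above 2, and those of Slc1a3 and Slc4a4 lie between -0.53 and 0.47.

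The order of the levels differed between the groups. In SETD4 OE it ran Atp1b2, Aldoc, Glul, Slc1a3, Aqp4, Gja1, Slc1a2, Slc4a4 and Gjb6 from the highest to the lowest, and the neighbours whose libraries overlapped were Aldoc with Glul and Gja1 with Slc1a2. In control it ran Slc1a3, Atp1b2, Glul, Aldoc, Slc4a4, Slc1a2, Aqp4, Gja1 and Gjb6, and the neighbours whose libraries overlapped were Glul with Aldoc and Aqp4 with Gja1. Of the summed FPKM of the 9 genes, Slc1a3 made up 14.1 ± 0.281% in SETD4 OE and 26.2 ± 0.420% in control, and Aqp4 9.65 ± 0.428% in SETD4 OE and 3.06 ± 0.440% in control. The share of Glul was 16.6 ± 0.636% in SETD4 OE and 17.8 ± 1.20% in control (mean ± SD, n = 3 each).

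Ratios within a library are not changed by any scaling that multiplies a library by a single factor, so pairs of related genes were compared this way. The Slc1a2 to Slc1a3 ratio was higher in SETD4 OE by 1.48 on the log2 scale, the Atp1b2 to Atp1b1 ratio by 1.40 and the Aldoc to Aldoa ratio by 1.72. The 3 SETD4 OE libraries lay above the 3 control libraries in each of these 3 pairs. For Aldoc and Aldoa this meant near-equal levels in SETD4 OE, with ratios of 0.984, 0.956 and 0.923, against 0.296, 0.291 and 0.281 in control. The Gjb6 to Gja1 ratio overlapped between the groups, at 0.00772, 0.00335 and 0.00704 in SETD4 OE and 0.00595, 0.00389 and 0.00251 in control. In an exact two-sided permutation test p was 0.10 for each of the 3 non-overlapping pairs, the smallest that 3 against 3 libraries allow (0.125 adjusted over 5 pairs tested), and 0.30 for Gjb6 over Gja1.

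**Figure D3:**
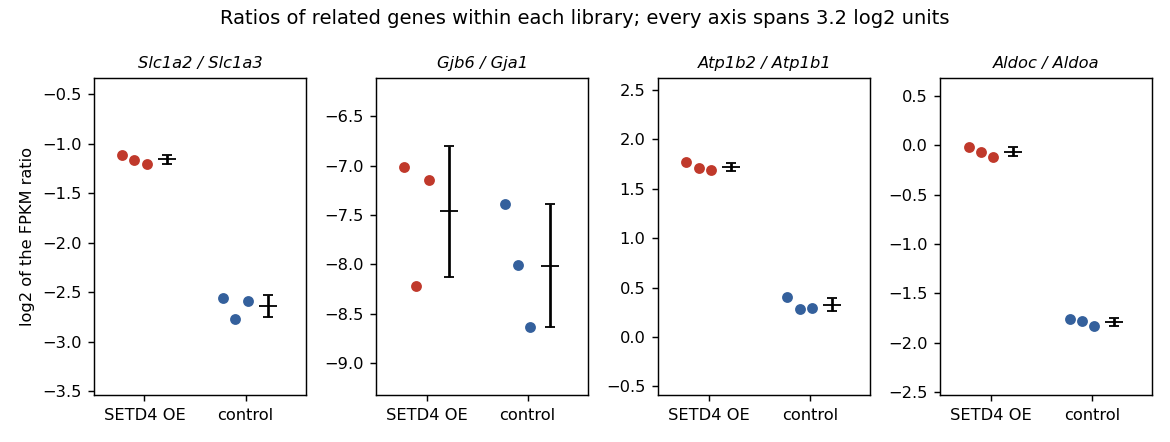
Log2 of the FPKM ratio of 4 gene pairs in each library, SETD4 OE (red) left of control (blue), with mean and SD of 3 libraries; every axis spans 3.2 log2 units. The groups are apart by 1.40 to 1.72 log2 units in 3 pairs and overlap for Gjb6 over Gja1.

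The sequence before annotated starts of the genes is given here as a description. RefSeq windows of 250 bases before to 50 after a transcription start (build GRCm38.p6, not the mm39 of the values) matched 7 of the 9 genes, with a pair of starts each for Aldoc and Slc4a4. The 250 bases before the start are shown for Gja1 and Slc1a2, which had the largest rises among the tested genes with a window, and for Aldoc and Slc1a3, whose windows held the letters TTCNNNGAA of a STAT site. The 50 bases after the start were found whole in 0 of 8 annotated transcripts of Gja1, 0 of 12 of Slc1a2 and 0 of 8 of Slc1a3. For the Aldoc start shown they were found in 1 of 6. Whether these starts are used in these cells was not tested. Capitals mark matches to TTCNNNGAA, to TGGGAA of RBPJ, the DNA-binding partner of Notch, and to TTGGCA, the core letters of a nuclear factor I site, on either strand.
Gja1 (chr10:56377050-56377299, plus strand): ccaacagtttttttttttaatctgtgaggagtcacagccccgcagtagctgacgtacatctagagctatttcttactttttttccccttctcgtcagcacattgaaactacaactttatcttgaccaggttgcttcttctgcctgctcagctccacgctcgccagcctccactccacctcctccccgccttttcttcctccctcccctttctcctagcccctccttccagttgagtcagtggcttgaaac
Slc1a2 (chr2:102706188-102706437, plus strand): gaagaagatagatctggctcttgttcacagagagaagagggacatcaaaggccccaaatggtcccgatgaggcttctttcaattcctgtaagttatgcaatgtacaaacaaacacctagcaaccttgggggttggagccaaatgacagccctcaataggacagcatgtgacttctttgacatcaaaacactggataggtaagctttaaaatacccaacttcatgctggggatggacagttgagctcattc
Aldoc (chr11:78323948-78324197, plus strand): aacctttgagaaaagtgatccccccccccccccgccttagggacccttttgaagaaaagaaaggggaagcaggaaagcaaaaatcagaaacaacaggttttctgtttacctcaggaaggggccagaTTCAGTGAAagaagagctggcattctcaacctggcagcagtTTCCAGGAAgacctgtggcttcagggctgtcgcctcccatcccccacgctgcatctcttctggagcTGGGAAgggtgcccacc
Slc1a3 (chr15:8710808-8711057, minus strand): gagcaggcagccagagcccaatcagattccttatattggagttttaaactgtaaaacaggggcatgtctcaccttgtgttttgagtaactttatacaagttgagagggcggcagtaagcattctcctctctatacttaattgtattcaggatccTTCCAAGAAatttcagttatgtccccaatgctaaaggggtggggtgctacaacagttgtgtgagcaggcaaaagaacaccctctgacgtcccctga
Over the whole windows, TTCNNNGAA stood in 2 of the 9 windows of these genes and in 8.30% of all 32851 windows. TGGGAA stood in 3 of the 9 and in 25.6% of all windows, and TTGGCA in 1 of the 9, the other Aldoc start, and in 14.1% of all. The E-box letters CACGTG (7.15% of all windows) and the SOX letters ACAATG (12.6%) stood in none of the 9. Base composition varied among the 9 upstream stretches, from 44.8% G and C with 1 CpG for Slc1a2 to 82.0% with 44 CpG for the upstream start of Slc4a4, beside a median of 52.4% and 6 CpG over all windows.

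Lists of genes that work beside the transporters are given against the background, in which 60.0% of tested genes were called, 26.0% higher and 33.9% lower. In the list of glutamate and GABA handling, 7 of 15 tested genes rose and 5 fell. The list's median on the log2 scale was -0.02 and became positive with equal sums, upper-quartile scaling, quantile normalization and limma-voom. The glutamine transporter gene Slc38a1 was at 37.3 ± 0.824 FPKM in SETD4 OE and 13.6 ± 0.112 FPKM in control (log2 fold change 1.40), and Abat, which breaks down GABA, at 34.1 ± 0.116 FPKM in SETD4 OE and 11.7 ± 0.497 FPKM in control (1.47). The cystine-glutamate exchanger gene Slc7a11 rose by 1.37. The taurine transporter gene Slc6a6 fell the most, to 2.12, 2.18 and 1.99 FPKM in SETD4 OE against 15.8, 16.0 and 16.3 FPKM in control (log2 fold change -2.46). All 4 changes had an adjusted p of at most 1.062e-05 (limma).

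In the list of ion, water and bicarbonate transport, 6 of 17 tested genes rose, 4 fell and 7 did not pass, a share of calls close to the 60.0% over all tested genes. With upper-quartile scaling 9 were higher and 3 lower. Fxyd7, among the 6 that rose, had a control mean of 0.394 FPKM and passed the filter only through SETD4 OE. Ttyh1, a chloride channel family gene of stem cells and astrocytes, was at 102 ± 1.58 FPKM in SETD4 OE and 26.5 ± 1.38 FPKM in control (log2 fold change 1.91). A second aquaporin gene, Aqp1, was at 5.81 ± 0.219 FPKM in SETD4 OE and 1.01 ± 0.0815 FPKM in control (1.76), and Fxyd1, a modulator of the sodium pump, rose by 1.51. Car2, the cytosolic carbonic anhydrase that supplies bicarbonate, fell to 58.5 ± 2.20 FPKM in SETD4 OE against 136 ± 4.49 FPKM in control (log2 fold change -1.21). The pump subunit Atp1b1 was at 116 ± 3.89 FPKM in SETD4 OE and 109 ± 2.73 FPKM in control (log2 fold change 0.09, adjusted p = 0.186, limma), and its adjusted p ranged from 0.0108 to 0.398 over the alternatives. Kcnj10, the main potassium channel of astrocytes, which was picked after its values were seen, was at 196 ± 4.90 FPKM in SETD4 OE and 192 ± 15.3 FPKM in control. It did not pass (0.03, adjusted p = 0.735, limma), but did with quantile normalization (0.30, adjusted p = 0.0269).

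Among other connexins, pannexins and junction scaffolds 5 of 10 genes were tested, of which 3 rose and 1 fell. Gjc3, a connexin of the oligodendrocyte lineage, was at 5.69 ± 0.629 FPKM in SETD4 OE and 0.578 ± 0.0956 FPKM in control (log2 fold change 2.08, adjusted p = 6.387e-06, limma). It passed the filter only through SETD4 OE, which fixes the side of its change. The scaffold gene Tjp1, whose product binds connexins, rose by 0.33. Gjc1 fell by 0.30 on the log2 scale (adjusted p = 0.0221, limma), and its adjusted p ranged from 0.0127 to 0.103 over the alternatives; without SETD4 OE replicate 2 it was 0.0665, without SETD4 OE replicate 3 0.0563 and without control replicate 2 0.0740. The call was also lost with the replicate number as a block (0.0583), with upper-quartile scaling (0.103) and without a filter (0.0629).

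The complex that anchors Aqp4 and other channels in astrocyte endfeet was mostly higher. Of 12 tested genes 10 rose and 1 fell, and their median on the log2 scale was 0.40. Dtna, a dystrobrevin, rose by 0.79, the sarcoglycan gene Sgcb by 0.71 and Mlc1, a membrane protein of endfeet, by 0.70, with Mlc1 at 245 ± 7.55 and 151 ± 14.5 FPKM in SETD4 OE and control. Each of these changes was smaller than the 2.82 of Aqp4.

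In the list of aldolases, glycogen and lactate 3 of 10 tested genes rose and 3 fell, a share of calls like the 60.0% over all tested genes. Pdk4, the kinase that inhibits pyruvate dehydrogenase, was at 15.2 ± 0.719 FPKM in SETD4 OE and 2.98 ± 0.0747 FPKM in control (log2 fold change 2.02, adjusted p = 1.34e-06, limma). The brain glycogen phosphorylase gene Pygb was at 150 ± 3.97 FPKM in SETD4 OE and 60.5 ± 1.84 FPKM in control (1.30). The lactate dehydrogenase genes went opposite ways, Ldhb at 298 ± 5.55 FPKM in SETD4 OE and 181 ± 4.52 FPKM in control (0.72) and Ldha at 112 ± 6.15 FPKM in SETD4 OE and 228 ± 23.4 FPKM in control (-1.01).

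**Figure D4:**
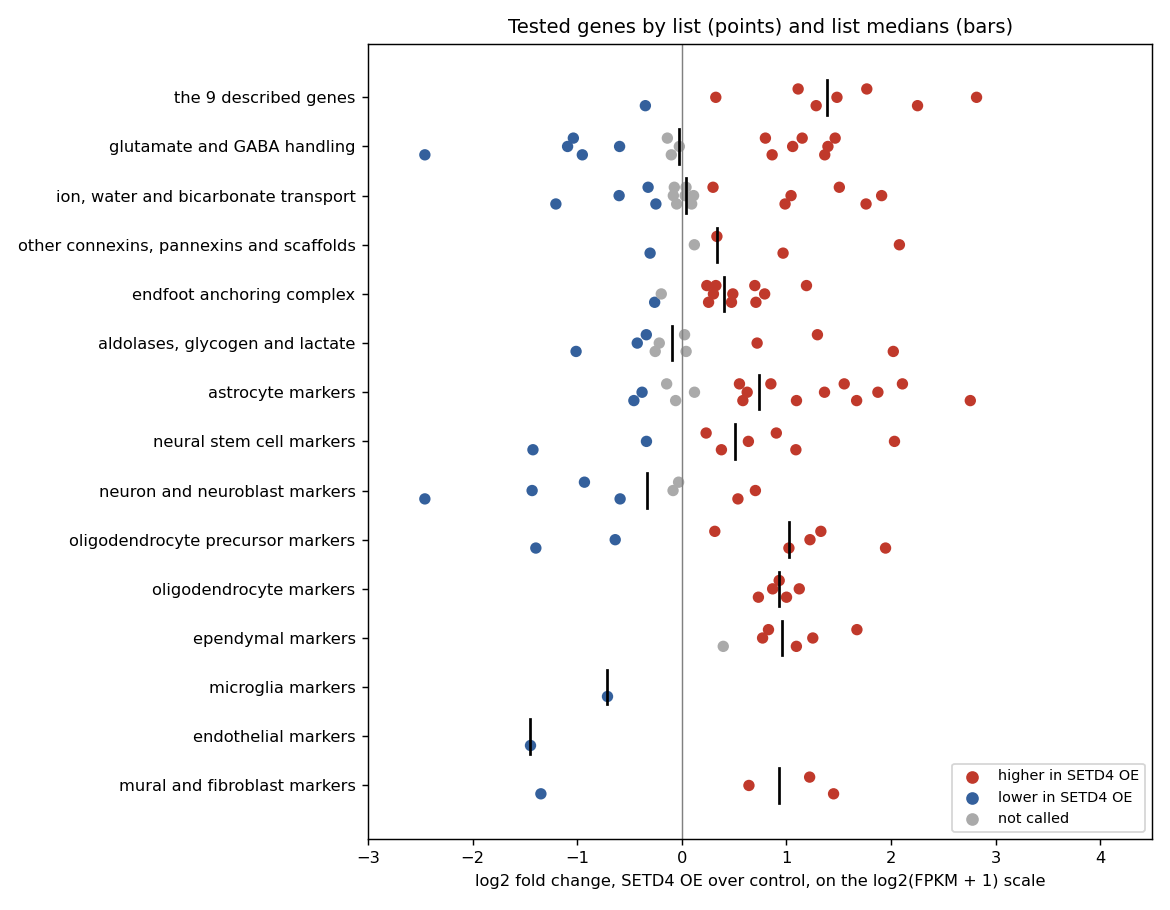
Log2 fold changes of SETD4 OE over control for the tested genes of each list (points: red called higher, blue called lower, grey not called) with the list median (bar). The 8 tested homeostasis genes have a median of 1.38; the lists of their transport partners spread on both sides of 0.

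Markers of several cell types moved as well, in a comparison that called 26.0% of tested genes higher and 33.9% lower. Of 16 astrocyte markers 11 rose, 2 fell and 3 did not pass. Those that fell were Fabp7, at 817 ± 32.4 FPKM in SETD4 OE and 1124 ± 77.2 FPKM in control (log2 fold change -0.46), and F3 (-0.38). Fabp7 lost its call in 1 of 15 alternatives. Aldh1l1, at 191 ± 8.13 FPKM in SETD4 OE and 199 ± 17.3 FPKM in control (-0.06), Acsbg1 (0.12) and Nfib (-0.15) did not pass. The median of the 16 markers on the log2 scale was 0.74, and they summed to 4117 to 4761 FPKM in SETD4 OE and 2367 to 2706 FPKM in control. Ntsr2, which encodes a neurotensin receptor, was at 37.4 ± 0.655 and 4.79 ± 1.43 FPKM in SETD4 OE and control. All 8 stem cell markers were tested, and 6 rose while Nes and Vim fell. The rise of Sox2 (0.23, adjusted p = 0.0399, limma) was lost in 8 of 15 alternatives, among them the replicate block (adjusted p = 0.0805) and the fits without SETD4 OE replicate 1 (0.0929), 2 (0.0567) or 3 (0.122) and without control replicate 1 (0.0665) or 3 (0.0666). The Notch effector gene Hes5 rose by 2.03, and the log2 fold change of Vim was -0.34 as deposited and 0.00 with quantile normalization. Their summed level was 1054 to 1104 FPKM in SETD4 OE and 1201 to 1278 FPKM in control. The list of oligodendrocyte precursors had 5 of 7 higher and 2 lower, with the receptor gene Gpr17 at 1.95 and the transcription factor gene Olig2 at -1.40 on the log2 scale, and summed to 715 to 772 FPKM in SETD4 OE and 1152 to 1288 FPKM in control. All 5 tested of 7 oligodendrocyte markers rose (83.8 to 90.8 FPKM summed in SETD4 OE and 42.5 to 45.8 FPKM in control), among them the myelin gene Mbp at 1.00. Mag, at a control mean of 0.570 FPKM, passed the filter only through SETD4 OE, which fixes the side of its change.

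Ependymal cells also make Aqp4. Of 6 tested ependymal markers 5 rose and 1 did not pass, led by Tppp3 (16.2 ± 3.18 and 4.36 ± 0.833 FPKM in SETD4 OE and control) and the dynein light chain gene Dynlrb2, and the 8 markers summed to 54.0 to 71.0 FPKM in SETD4 OE and 22.1 to 26.4 FPKM in control. A gene averaging under 1 FPKM in 1 group passes the filter only through the other group, which fixes the side of its change. Among the 5 rises this held for Tmem212 and Pifo, at control means of 0.605 and 0.906 FPKM. Of 8 tested neuron and neuroblast markers 2 rose and 4 fell, led by the neurofilament genes Nefl and Nefm at -2.46 and -1.43, and the 15 summed to 24.8 to 28.5 FPKM in SETD4 OE and 32.9 to 35.8 FPKM in control. The share that rose was near the 26.0% called higher over all tested genes, where 33.9% were called lower. Gad1 passed the filter only through SETD4 OE, and Nefl, Nefm and Gad2 only through control. In the microglia list 1 of 10 genes was tested, the lysosomal gene Cd68 (-0.72), and the list summed to 5.74 to 6.90 FPKM in SETD4 OE and 6.84 to 10.3 FPKM in control. In the endothelial list 1 of 7 was tested, the receptor gene Flt1 (-1.45), and the list summed to 1.22 to 1.48 FPKM in SETD4 OE and 3.90 to 4.28 FPKM in control; Cldn5, which seals the vessels of the brain, had no reads in any library. Of 4 tested mural and fibroblast markers 3 rose, led by the collagen gene Col1a1 (1.45), and smooth muscle actin Acta2 fell by 1.35 on the log2 scale (21.5 to 25.4 FPKM summed over 7 in SETD4 OE and 32.1 to 36.6 FPKM in control). The part of these cell types in the levels of the 9 genes was not tested.

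The genes most like Aqp4 and Atp1b2 in profile were found by Euclidean distance over the 6 libraries, on log2(FPKM + 1) values centred on each gene's mean, among 7468 other protein-coding genes that averaged 5 FPKM or more. Nearest to Aqp4, the gene of the group with the largest change, were Ntsr2 (distance 0.24), Tmem132b (0.25) and Igfbp5 (0.26). Nearest to Atp1b2, the gene with the highest mean level, were Paqr8 (0.06), Plpp3 (0.09) and Enpp2 (0.10). Plpp3 was at 314 ± 7.23 FPKM in SETD4 OE and 112 ± 3.42 FPKM in control. With 6 libraries in 2 groups such a distance mostly measures how alike the log2 fold changes are, which were 2.65 to 2.77 for the neighbours of Aqp4 and 1.48 to 1.51 for those of Atp1b2.

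**Figure D5:**
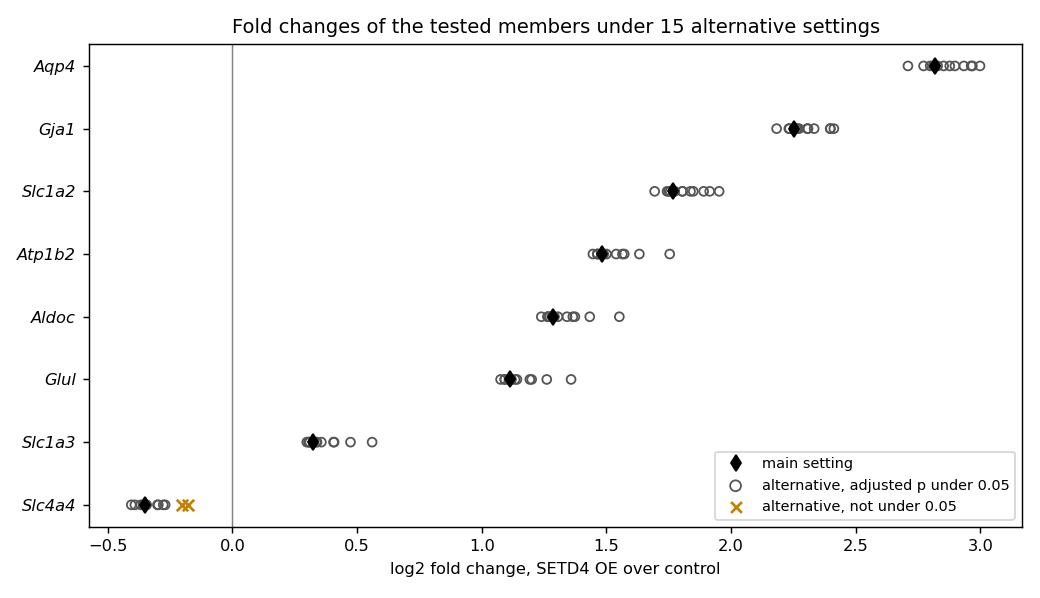
Log2 fold changes of the 8 tested genes under the main setting (diamonds) and 15 alternatives (open circles where the adjusted p was under 0.05, crosses where it was not). Both crosses are for Slc4a4, at -0.20 and -0.18, and no gene changes side of 0.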

How the data were processed

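The authors deposited FPKM of 6 libraries in 2 tables that also hold gene positions and lengths, per the file headers; the unit was read from the values. The submitters' processing notes name HISAT2 2.0.5 and mm39. Counting tool, annotation and strand setting are not given in the sources used here. Multiplied by gene length, 100% of values stepped in whole reads (tolerance 0.05 reads), which gave reads per gene. The recovered totals differed from the library sizes these steps imply by -5.04 to -3.69% in SETD4 OE and by 0.63 to 2.75% in control. Intervals on them cover counting error only, since PCR copies are not separated. Genes averaging 1 FPKM or more were compared on log2(FPKM + 1) with limma 3.58.1 in R 4.3.3 (mean-variance trend, two-sided, Benjamini-Hochberg over all tested genes, no replicate block). The pseudocount understates changes of low genes. The filter admits a gene averaging under 1 FPKM in 1 group only when the other group is higher. The step was also run on simulated reads with few changed genes, the same dispersion for all genes and no gene-length effect. That setting is simpler than these data.

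The 9 genes and 14 lists were chosen with earlier results of these data known. Named genes were, by rule, up to 4 called genes with the largest change per pathway list, up to 2 per marker list, and partners in the ratios, of which a few, with 1 of the 5 ratios, are not reported here; Sox2, Vim, Kcnj10 and the list genes given as counts of 1 were named after their values were seen. Libraries of a group differed by more than sampling noise (chi-square per degree of freedom 3.89 to 16.3 within groups, 92.8 to 121 between). Alternatives were other filters, pseudocounts and scalings, a replicate block, limma-voom and leaving out each library; the no-filter fits with a pseudocount of 0.1 FPKM and with limma-voom at 10 or more reads were chosen after seeing the data. Motifs were searched in RefSeq windows of GRCm38.p6. Figures were drawn with matplotlib 3.10.9 and permutation tests run with scipy 1.17.1.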

Additional observations from a re-analysis of the deposited data

How the results depend on the processing

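The 7 rises among the 9 genes kept their direction and an adjusted p under 0.05 under all 15 alternatives tried. The number of them called lower was 1 as reported and 0 with upper-quartile scaling or quantile normalization, where Slc4a4 lost its call; the cause was not tested. The difference in the Gjb6 to Gja1 ratio was 0.55 on the log2 scale and reversed to -1.74 with a pseudocount of 1 FPKM on both genes, since Gjb6 lies below that pseudocount. For Gjb6 the log2 fold change was 0.51 without a filter, 1.83 with a pseudocount of 0.1 FPKM as well, and 2.76 with limma-voom. All genes called numbered 7790, and 6637 to 7874 when 1 library was left out. With the replicate number as a block, 6941 genes were called and the calls of the 9 genes stayed as they were. Deviations from the group mean of same-numbered libraries correlated at -0.07, -0.23 and 0.08, and those of differently numbered libraries at -0.25 to 0.30. With 3 libraries per group these values cannot show whether the numbers pair the libraries. Of 44 other genes followed across the alternatives, Aldoa, Gjc1, Sox2 and Vim lost and Atp1b1 and Kcnj10 gained a call under some alternative, and Vim reversed with quantile normalization (0.00251, limma adjusted p = 0.982). Gjb6, with 70 reads in SETD4 OE and 10 in control, is the only one of the 9 limited by depth.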

Other observations

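Within each group, the same library was often the highest for several of the 9 genes. Control replicate 1 was the highest control for 7 genes (Aqp4, Gja1, Gjb6, Slc1a2, Slc1a3, Atp1b2 and Slc4a4) and the lowest for Glul and Aldoc. SETD4 OE replicate 2 was the highest of its group for Aqp4, Gja1, Slc1a2, Slc1a3, Atp1b2 and Slc4a4 and the lowest for Gjb6, Glul and Aldoc. Glul and Aldoc have gene lengths of 3782 and 3263 bases, and the other tested members 4085 to 13133 bases. Gjb6, which was below the filter, is the shortest of the 9 at 2674 bases, yet was highest in control replicate 1. Over all 12994 tested genes, the deviation of a library from its group mean correlated with gene length at Spearman rho 0.24 in control replicate 1 and 0.21 in SETD4 OE replicate 2, and at -0.28 in control replicate 2 and -0.29 in SETD4 OE replicate 3 (across genes, as a description; genes are not replicates). The log2 fold change itself had a rho of 0.10 with gene length, and its median was -0.13 for genes under 2500 bases and -0.00161 for genes of 5000 bases or more. The part of gene length in the changes of the 9 genes was not tested.

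Some relatives of the 9 genes averaged below the filter over the 6 libraries and were not tested. The neuronal glutamate transporter gene Slc1a1, named after its values were seen, was at 1.20 ± 0.104 FPKM in SETD4 OE and 0.339 ± 0.0316 FPKM in control. All its SETD4 OE values lay above control, which also held for 29.1% of tested genes.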
